A study of Mus musculus with 10 samples.

Results

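The Toll-like receptors examined here are the 10 genes Tlr1, Tlr2, Tlr3, Tlr4, Tlr5, Tlr6, Tlr7, Tlr8, Tlr9 and Tlr13, chosen by symbol among the 55291 genes of the count table. All 10 passed the filter on low counts, which 17015 genes passed in all. RNA-seq was made from the right liver lobe of 10 female mice aged 16 to 20 weeks that carried a Cas9 gene behind a Lox-Stop-Lox cassette. Every mouse received AAV8 with a guide RNA under the U6 promoter and Cre under the TBG promoter, which is active in hepatocytes, with either a non-targeting guide (NTC) or a guide against Bap1 (sgBap1). On day 10 the mice were injected intraperitoneally, at 10 µL per g of body weight, with CCl4 diluted 1:9 in olive oil or with olive oil alone (Veh), and livers were taken 48 hours later. With vehicle there were 2 livers for each guide, NTC-Veh and sgBap1-Veh, and with CCl4 there were 3 for each, NTC-CCl4 and sgBap1-CCl4. CCl4 (carbon tetrachloride) injures hepatocytes once their own cytochromes have activated it, and Bap1 encodes a nuclear deubiquitinase. Since Cre was restricted to hepatocytes, other liver cells of the sgBap1 mice were not targeted by design, and each value is a sum over all cells of a lobe. Fewer cells of a type and less RNA per cell cannot be told apart in such samples.

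Toll-like receptors are sensors of innate immunity that recognise microbial molecules and some products of damaged host cells. Tlr1, Tlr2, Tlr4, Tlr5 and Tlr6 encode receptors of the cell surface, and Tlr3, Tlr7, Tlr8, Tlr9 and Tlr13 encode receptors of endosomes that bind nucleic acids. Most signal through the adaptor MyD88 to IRAK kinases and NF-kappaB, while TLR3, and TLR4 in part, use the adaptor TRIF. In the liver they are best known from Kupffer cells, the resident macrophages, and from recruited monocytes, although several are also made by hepatocytes and endothelial cells.

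The libraries held between 33047900 and 52199900 estimated counts, and levels are given as CPM, in which counts are scaled to a library size common to all livers after TMM normalization. A level of 3 counts, the limit that a count of 0 allows, corresponded to 0.0511 to 0.112 CPM, and such limits cover counting error only. Bap1 was at 34.8 CPM in both NTC-Veh livers and at 17.5 and 19.5 CPM in the sgBap1-Veh livers. After CCl4 it was at 29.5 to 31.5 CPM with the NTC guide and at 17.0 to 21.8 CPM with sgBap1, so every library matched its label for the targeted gene. Hepatocyte markers (Alb, Apoa1, Ttr, Cyp2e1 and Hnf4a) summed to 62335 to 149738 CPM in all livers. The second sgBap1-CCl4 liver stood apart in its fat cell markers (Adipoq, Plin1, Cidec and Fabp4), which summed to 383 CPM against at most 30.5 CPM in the other livers. The edgeR tests were repeated without it, and the receptor counts, list counts and named calls of edgeR that changed are given. DESeq2's test was not repeated without it.

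The 10 receptors lie on 7 chromosomes of GRCm38 (GENCODE vM21). Tlr1 (chr5:64924679-64933563) and Tlr6 (chr5:64952031-64960097) are neighbours on the minus strand, and Tlr7 (chrX:167304929-167330558) and Tlr8 (chrX:167242696-167264329) are another pair of neighbours on the minus strand. Tlr13 (chrX:106143204-106160493) lies elsewhere on the X chromosome. Tlr2 is at chr3:83836272-83841767, Tlr3 at chr8:45395665-45411080, Tlr4 at chr4:66827584-66930284, Tlr5 at chr1:182954788-182976044 and Tlr9 at chr9:106222598-106226883. Tlr3 overlaps the antisense gene Gm45542 on the other strand. The library kit keeps strand, but whether strand entered the counting was not given in the sources used here.

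Tlr1 and Tlr6 share long stretches of coding sequence, which matters for reads of 50 bases. Of the distinct 50-base stretches in their annotated transcripts, 13.6% of those of Tlr1 also occur in Tlr6, and 12.3% of those of Tlr6 occur in Tlr1. The longest identical run is shown because a read inside it can be assigned only through a mate outside it. It has 229 bases and lies in the coding sequence of both, over codons 490 to 566 of 795 in Tlr1 (chr5:64925537-64925765, minus strand) and codons 503 to 579 of 806 in Tlr6 (chr5:64953828-64954056, minus strand).
Shared run of Tlr1 and Tlr6: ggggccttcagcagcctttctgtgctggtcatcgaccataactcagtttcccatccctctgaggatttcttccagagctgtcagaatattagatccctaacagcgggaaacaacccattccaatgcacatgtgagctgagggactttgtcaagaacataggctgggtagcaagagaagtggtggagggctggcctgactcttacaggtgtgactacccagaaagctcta
The split of counts between these 2 genes is therefore uncertain, and results are also given for their summed counts. In all, 15.4% of the stretches of Tlr1 occur in 158 other genes, Tlr6 among them, and the sum does not cover the part outside Tlr6. No other member shared more than 0.018% of its 50-base stretches with another gene.

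Promoter sequences from RefSeq (GRCm38.p6, windows of 300 bases from upstream of each annotated start to 50 bases past it) matched 8 of the 10 receptors, in 10 windows. They were searched on both strands for the letters of motifs bound by factors of myeloid cells and of inflammation: GAGGAA (PU.1), TGANTCA (AP-1), TTCNNNGAA (GAS), TTGCNNAA (C/EBP), GAAA followed after any 2 bases by GAAA (ISRE, the interferon-stimulated response element) and GGG followed after any 3 bases by TTCC (kappaB). The PU.1 letters occurred in the windows of 4 of 8 receptor genes, against 31.3% of the 27025 genes in the table. The kappaB letters occurred in 3 of 8 receptor genes (Tlr2, Tlr3 and Tlr6), against 6.31% of all genes. C/EBP letters were in 4 of 8 genes against 12.2%, GAS letters in 3 against 9.55%, ISRE letters in 1 (Tlr6) against 3.99% and AP-1 letters in 1 (Tlr9) against 8.97%. With 8 genes these shares are descriptions, and a match is neither a bound site nor a cause. The only matches that overlapped were a pair of ISRE matches in Tlr6. The letters of kappaB and PU.1 can share TTCC, but no matches of different motifs overlapped in these windows.

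The stretches below lie upstream of the annotated starts and outside the exons of their genes. They were chosen after the matches were known, for receptors that were higher after CCl4, with the matched letters in capitals. Tlr3 and Tlr6, also higher in NTC-CCl4, had no PU.1 letters but had kappaB letters, like Tlr2, and no stretch of theirs is shown. Tlr1 had another window (chr5:64932650-64932949, minus strand), not shown, with GAS letters and no PU.1 letters. Tlr4 and Tlr7, also higher, had no window. The stretches are therefore a picked set. The stretch of Tlr1 is at chr5:64933564-64933648 (minus strand), that of Tlr2 at chr3:83841768-83841858 (minus), that of Tlr8 at chrX:167264360-167264449 (minus), that of Tlr9 at chr9:106222468-106222557 (plus) and that of Tlr13 at chrX:106143115-106143203 (plus). The capitals mark PU.1 letters in Tlr1, Tlr8, Tlr9 and Tlr13, in Tlr8 as the reverse complement. They also mark kappaB letters in Tlr2, GAS letters upstream of the PU.1 letters in Tlr8, and AP-1 letters downstream of them in Tlr9.
Tlr1: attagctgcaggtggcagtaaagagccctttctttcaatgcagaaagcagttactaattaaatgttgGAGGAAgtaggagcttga
Tlr2: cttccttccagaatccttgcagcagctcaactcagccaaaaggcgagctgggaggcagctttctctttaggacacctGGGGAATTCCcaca
Tlr8: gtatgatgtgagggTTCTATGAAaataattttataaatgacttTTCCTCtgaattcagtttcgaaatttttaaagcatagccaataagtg
Tlr9: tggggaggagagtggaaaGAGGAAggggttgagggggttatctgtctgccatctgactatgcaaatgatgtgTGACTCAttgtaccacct
Tlr13: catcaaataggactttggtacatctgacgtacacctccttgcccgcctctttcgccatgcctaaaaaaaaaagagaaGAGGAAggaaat
The stretch of Tlr5, the member that was lower after CCl4, is at chr1:182954698-182954787 (plus) and is shown for comparison. None of the 6 motifs matched in its whole 300-base window, which says only that these letters are not there.
Tlr5: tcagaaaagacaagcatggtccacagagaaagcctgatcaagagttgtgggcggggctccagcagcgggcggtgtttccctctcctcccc

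Levels were compared between receptors per kb of the longest coding transcript. In NTC-Veh livers Tlr5, which binds bacterial flagellin, and Tlr3, which binds double-stranded RNA, were the highest, at means of 2.29 and 1.93 CPM per kb. Tlr2 followed at 0.911 CPM per kb. Tlr7, Tlr13, Tlr4 and Tlr1 came next with means from 0.379 to 0.437 CPM per kb, and neighbours in that order overlapped between livers. Tlr8, Tlr6 and Tlr9 were lowest, Tlr9 at 0.0593 CPM per kb. The order was different in the NTC-CCl4 livers. Tlr13, Tlr2 and Tlr1 led with means of 4.50, 4.35 and 4.23 CPM per kb and overlapping livers, and Tlr3 followed at 2.94 CPM per kb. Tlr5 was the seventh at 1.55 CPM per kb, in overlap with Tlr4 and Tlr8. In sgBap1-CCl4 livers Tlr13, Tlr1 and Tlr2 again led, and Tlr5 was the ninth at 0.783 CPM per kb, overlapping with Tlr9.

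The make-up of the receptor transcripts followed from these levels. Together the 10 members reached 7.35 and 7.39 CPM per kb in the NTC-Veh livers, while the sgBap1-Veh livers had 9.38 and 9.87 CPM per kb. After CCl4 the sum was 23.2 to 26.5 CPM per kb with the NTC guide and 21.5 to 26.1 CPM per kb with sgBap1. Tlr3 and Tlr5 together held 55.7% and 59.0% of it in NTC-Veh and 35.3% and 38.9% in sgBap1-Veh. After CCl4 their share was 15.6% to 21.5% with the NTC guide and 10.5% to 14.2% with sgBap1, with no overlap between any of the 4 groups. Tlr1, Tlr2 and Tlr13 together held 21.5% and 25.1%, 34.2% and 35.4%, 49.95% to 55.5% and 54.5% to 56.2% in the same groups, and only the CCl4 groups overlapped. These shares are relative to the sum, which itself differed between groups. Tlr3 and Tlr5 had the highest levels in NTC-Veh, and Tlr1, Tlr2 and Tlr13 had the highest in NTC-CCl4. The separation of these sets between groups follows in part from that choice.

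**Figure D1:**
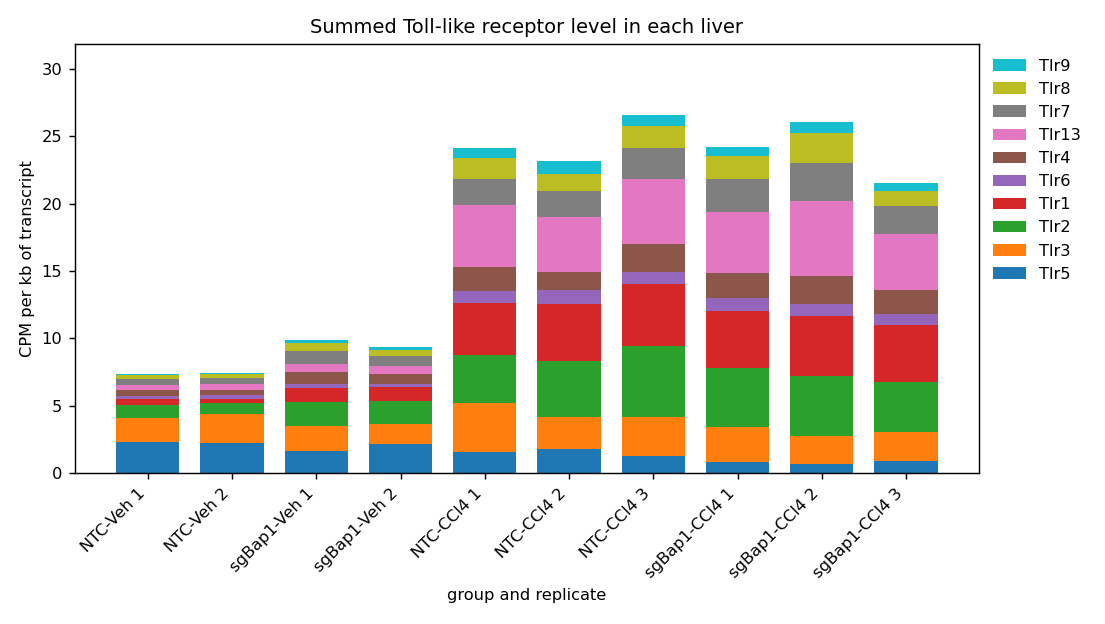
Summed level of the 10 Toll-like receptors in each liver, in CPM per kb of the longest coding transcript, with each receptor as a stacked colour. The CCl4 livers reached 21.5 to 26.5 CPM per kb and the vehicle livers 7.35 to 9.87, and the lower pair of colours, Tlr5 and Tlr3, took 55.7% to 59.0% of the NTC-Veh bars.

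The comparison of NTC-CCl4 with NTC-Veh asked how the receptors differed after acute injury with Bap1 intact. All 10 receptors passed the test, 9 higher and Tlr5 lower, against 53.9% of all genes tested (27.4% higher and 26.6% lower). The members' median log2 fold change was 2.24 and that of all genes 0.03. For all 10 the livers of the 2 groups did not overlap, where 36.7% of all genes were higher and 35% lower without overlap. All p-values below are from edgeR's quasi-likelihood test with Benjamini-Hochberg adjustment over the 17015 genes.

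Among the receptors of the cell surface, Tlr1 had the largest difference. Tlr1, whose product pairs with TLR2 to bind triacylated lipopeptides, was at 1.34 and 0.949 CPM in NTC-Veh and at 11.7, 12.9 and 13.9 CPM in NTC-CCl4. It rose 11.2-fold (log2 fold change 3.49 ± 0.17 SE, adjusted p = 6.64e-07). Tlr6, the other partner of TLR2 and a receptor for diacylated lipopeptides, was at 0.835 and 0.907 CPM in NTC-Veh and at 3.19, 3.73 and 3.26 CPM in NTC-CCl4. It rose 3.85-fold (1.95 ± 0.19, adjusted p = 1.79e-05). With their counts summed, Tlr1 and Tlr6 rose by 3.00 ± 0.13 on the log2 scale (adjusted p = 5.42e-07). The ratio of Tlr1 to Tlr6 per kb was 1.27 and 1.96 in NTC-Veh, and 4.19 to 5.17 in NTC-CCl4, without overlap.

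Tlr2, the shared partner of both, was at 2.91 and 2.58 CPM in NTC-Veh and at 10.8, 12.5 and 16.01 CPM in NTC-CCl4. It rose 4.76-fold (log2 fold change 2.25 ± 0.19, adjusted p = 7.54e-06). Tlr4, the receptor for lipopolysaccharide, was at 1.63 and 1.72 CPM and at 7.27, 5.60 and 8.51 CPM. It rose 4.23-fold (2.08 ± 0.22, adjusted p = 2.68e-05). Tlr5 went the other way, with 8.90 and 8.59 CPM in NTC-Veh and 6.08, 6.91 and 4.74 CPM in NTC-CCl4. It was 1.48-fold lower (-0.56 ± 0.19, adjusted p = 0.0311). This call was lost without NTC-Veh replicate 1 (adjusted p = 0.123) or 2 (0.0964) or NTC-CCl4 replicate 1 (0.0617) or 3 (0.0956), and with scaling by library size alone (-0.09, adjusted p = 0.69), where the median of all genes shifted by 0.50.

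Among the endosomal receptors, Tlr9 and Tlr13 had the largest fold changes. Tlr9, the receptor for unmethylated CpG DNA, was at 0.163 and 0.249 CPM in NTC-Veh, which is 6 and 9 counts, and at 2.60, 3.38 and 2.65 CPM in NTC-CCl4. It rose 13.8-fold (log2 fold change 3.79 ± 0.33, adjusted p = 9.92e-06). Tlr13, which binds bacterial ribosomal RNA, was at 1.77 and 1.69 CPM and at 18.7, 16.5 and 19.6 CPM. It rose 10.5-fold (3.40 ± 0.16, adjusted p = 6.98e-07). Replicates of Tlr13 were close within each group, and its mean level per kb was the highest of the family after CCl4, with livers that overlapped those of Tlr1 and Tlr2.

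Tlr7, a receptor for single-stranded RNA, was at 1.66 and 1.75 CPM in NTC-Veh and at 7.72, 7.48 and 8.82 CPM in NTC-CCl4. Its neighbour Tlr8 was at 1.06 and 0.887 CPM and at 5.14, 4.41 and 5.75 CPM. Tlr7 rose 4.69-fold (2.23 ± 0.19, adjusted p = 9.28e-06) and Tlr8 5.21-fold (2.38 ± 0.33, adjusted p = 0.000156). Their ratio per kb was 1.32 to 1.49 in NTC-CCl4 and 1.38 and 1.73 in NTC-Veh, with overlap, and it lay between 1.25 and 1.81 over all 10 livers. Tlr3 had the smallest rise, from 7.76 and 9.28 CPM to 15.8, 10.3 and 12.8 CPM. It was 1.52-fold higher (0.61 ± 0.19, adjusted p = 0.0223), but not past the threshold without NTC-Veh replicate 1 (0.48, adjusted p = 0.157) or NTC-CCl4 replicate 1 (0.44, adjusted p = 0.0748).

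**Figure D2:**
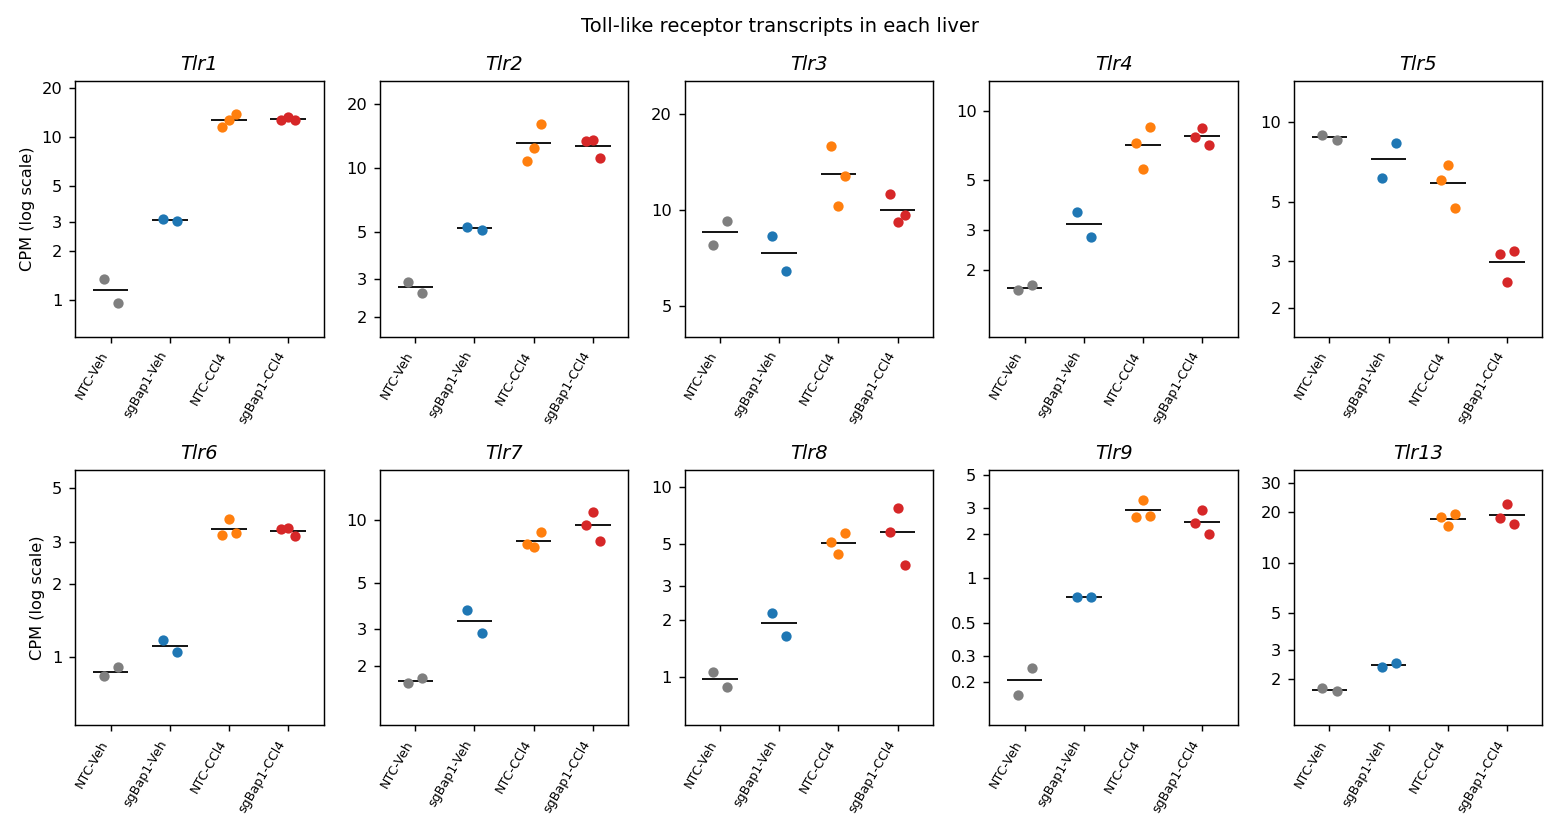
Level of each Toll-like receptor in each liver, in CPM on a log axis whose range differs between panels, with points as livers and bars as group means. For 8 receptors the vehicle and CCl4 livers form separate levels, while Tlr3 spans 6.44 to 15.8 CPM and Tlr5 falls from 8.90 CPM in an NTC-Veh liver to 2.50 CPM in an sgBap1-CCl4 liver.

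With the Bap1 guide, 9 of the 10 receptors passed the test after CCl4, 8 higher and Tlr5 lower, against 57% of all genes (29% higher and 28% lower). The members' median log2 fold change was 1.54. Their livers did not overlap for any member, with 37.3% of all genes higher and 34.9% lower in this way. This comparison sets no NTC liver against another group, although all 10 livers shared the estimate of the spread. Tlr13 had the largest rise, from 2.37 and 2.51 CPM in sgBap1-Veh to 18.5, 22.5 and 17.0 CPM in sgBap1-CCl4, which is 7.95-fold (2.99 ± 0.16, adjusted p = 8.07e-07). Tlr1 was at 3.13 and 3.06 CPM before and at 12.7, 13.3 and 12.8 CPM after, 4.18-fold higher (2.06 ± 0.15, adjusted p = 3.03e-06). Tlr9 was at 0.754 and 0.749 CPM and at 2.35, 2.88 and 2.00 CPM, 3.21-fold higher (1.68 ± 0.27, adjusted p = 0.000424).

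The other receptors that rose with the Bap1 guide did so 2.40-fold to 3.00-fold. Tlr8 was at 2.18 and 1.65 CPM in sgBap1-Veh and at 5.79, 7.72 and 3.87 CPM in sgBap1-CCl4. Tlr7 was at 3.71 and 2.88 CPM and at 9.54, 10.96 and 7.97 CPM. All 8 receptors that rose had the highest level of their group in the second sgBap1-CCl4 liver, which held the fat cell markers. Tlr2 was at 5.30 and 5.09 CPM and at 13.3, 13.6 and 11.1 CPM, Tlr4 at 3.61 and 2.81 CPM and at 7.71, 8.44 and 7.14 CPM, and Tlr6 at 1.18 and 1.05 CPM and at 3.38, 3.41 and 3.17 CPM. Their adjusted p-values, with those of Tlr7 and Tlr8, lay between 5.83e-05 (Tlr6) and 0.00112 (Tlr8).

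Tlr5 was at 6.14 and 8.35 CPM in sgBap1-Veh and at 3.20, 2.50 and 3.27 CPM in sgBap1-CCl4, 2.41-fold lower (-1.27 ± 0.20, adjusted p = 0.000382). Tlr3 was at 8.29 and 6.44 CPM and at 11.3, 9.16 and 9.67 CPM. Its difference of 0.44 ± 0.20 missed the threshold (adjusted p = 0.0767), although it passed without NTC-CCl4 replicate 2 (0.44, adjusted p = 0.0478) and with scaling by library size alone (0.92, adjusted p = 0.00288), where the median of all genes shifted by 0.52. Without the second sgBap1-CCl4 liver 9 members were still called, with Tlr13 at 2.87, Tlr8 at 1.32 and Tlr5 at -1.15 on the log2 scale.

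The comparison of sgBap1-Veh with NTC-Veh asked what the Bap1 guide did without CCl4. Tlr1 alone passed the test, higher in sgBap1-Veh, where 0.406% of all genes were called (0.276% higher). Its 3.13 and 3.06 CPM lay above the 1.34 and 0.949 CPM of NTC-Veh, 2.71-fold (log2 fold change 1.44 ± 0.18, adjusted p = 0.0208). With the counts of Tlr1 and Tlr6 summed the difference was 1.06 ± 0.14 (adjusted p = 0.0208), and the ratio of Tlr1 to Tlr6 per kb was 3.24 and 3.54 against 1.27 and 1.96. The call of Tlr1 was lost without NTC-Veh replicate 2 (1.21, adjusted p = 0.104), sgBap1-Veh replicate 1 (1.42, adjusted p = 0.0994) or sgBap1-Veh replicate 2 (1.45, adjusted p = 0.0578), and with only the 4 vehicle livers in the model (1.42, adjusted p = 0.168). Over all alternatives that keep every liver its adjusted p ranged from 8.37e-07 to 0.168.

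The remaining members did not pass the threshold, but most had higher levels in both sgBap1-Veh livers. For 8 of 10 members the 2 sgBap1-Veh livers lay above the 2 NTC-Veh livers, against 21.7% of all genes, and Tlr5 lay below, against 19.2%. The members' median log2 fold change was 0.93, against 0.02 for all genes. At an unadjusted p under 0.05 stood 7 members, all higher, against 12.3% of all genes (7.09% higher). Tlr9 had the largest log2 fold change, 1.85 ± 0.43 (adjusted p = 0.0992), from 6 and 9 counts in NTC-Veh and 28 and 20 counts in sgBap1-Veh. Tlr2 (0.92 ± 0.21, adjusted p = 0.0859), Tlr7 (0.96 ± 0.22, adjusted p = 0.0869) and Tlr4 (0.95 ± 0.24, adjusted p = 0.127) were similar to each other. DESeq2's Wald test called 5 members, all higher, against 3.64% of its 15058 genes (2.6% higher). These were Tlr1, Tlr2, Tlr4, Tlr7 and Tlr9, with adjusted p-values from 8.37e-07 to 0.0221.

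The other 5 members were called by neither test between the vehicle groups. Tlr8 had a log2 fold change of 0.99 ± 0.38 (adjusted p = 0.314), Tlr13 of 0.49 ± 0.18 (adjusted p = 0.307) and Tlr6 of 0.35 ± 0.23 (adjusted p = 0.623). Tlr3 was at -0.20 ± 0.21 (adjusted p = 0.788) with overlapping livers, and Tlr5 at -0.28 ± 0.22 (adjusted p = 0.689). Tlr13, among the receptors with the largest fold change after CCl4, was thus near the lower end with the Bap1 guide alone, whereas Tlr1 was high in both comparisons. Both comparisons share the NTC-Veh livers.

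Between sgBap1-CCl4 and NTC-CCl4 no receptor passed the test, where 0.329% of all genes did. At an unadjusted p under 0.05 stood 1 member, Tlr5, against 14% of all genes (7.64% lower), and DESeq2's Wald test called Tlr5 alone, against 3.08% of its 15567 genes (1.79% lower). Tlr5 was at 6.08, 6.91 and 4.74 CPM in NTC-CCl4 and at 3.20, 2.50 and 3.27 CPM in sgBap1-CCl4, without overlap, where 10.1% of all genes were lower in this way. Its log2 fold change was -0.99 ± 0.18 (adjusted p = 0.054), -0.87 without the second sgBap1-CCl4 liver (adjusted p = 0.141). DESeq2 gave an adjusted p of 0.000294, and the range over the alternatives that keep every liver was 0.000294 to 0.129.

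The livers of the 2 CCl4 groups overlapped for the other 9 receptors. Tlr1 was at 11.7 to 13.9 CPM in NTC-CCl4 and at 12.7 to 13.3 CPM in sgBap1-CCl4, a log2 fold change of 0.02 with -0.21 to 0.25 as the range of 2 SE either side. The same range was -0.34 to 0.25 for Tlr2, -0.30 to 0.24 for Tlr6, -0.20 to 0.45 for Tlr4 and -0.15 to 0.32 for Tlr13. It was wider for Tlr9 (-0.63 to 0.12) and Tlr8 (-0.27 to 0.65), and for Tlr7 it was -0.04 to 0.54. Tlr3 had the second largest difference, -0.37 ± 0.17 (adjusted p = 0.361). Among these 9 the furthest bound, for Tlr3, was -0.70.

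**Figure D3:**
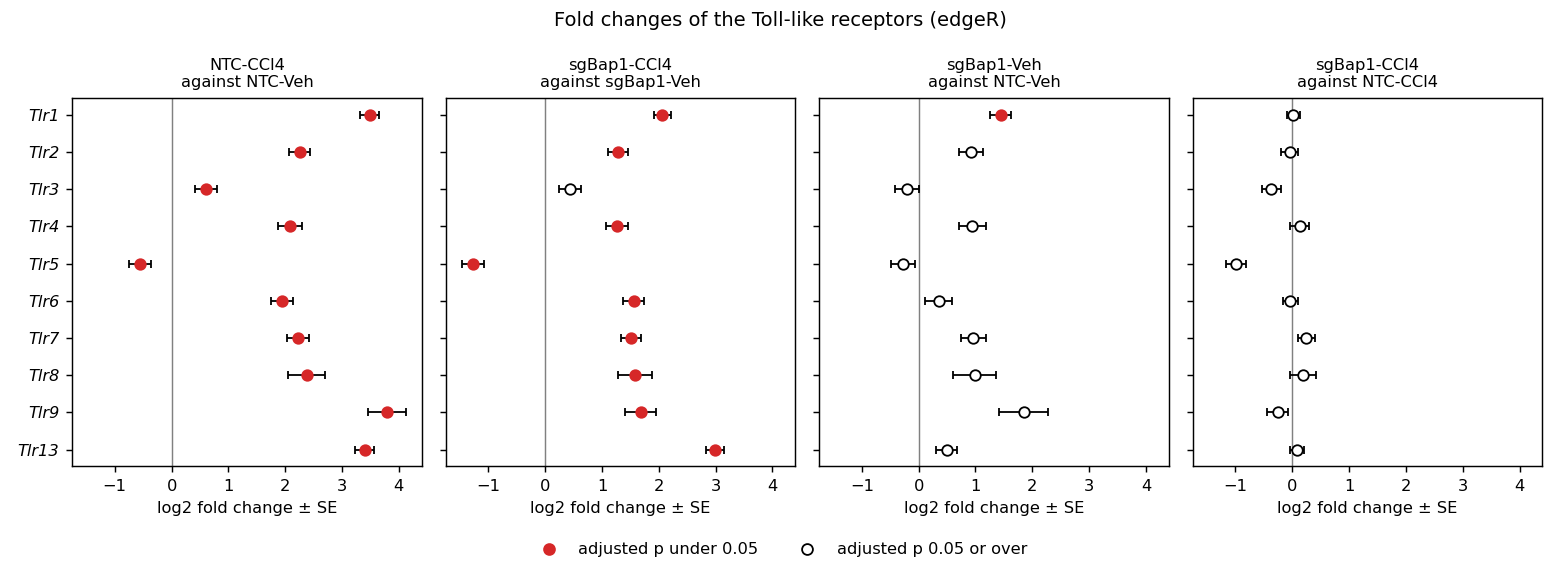
Log2 fold change of each Toll-like receptor with its SE in the 4 pairwise comparisons (edgeR), filled where the adjusted p was under 0.05. CCl4 gave 10 filled points with the NTC guide and 9 with sgBap1, the Bap1 guide gave 1 with vehicle (Tlr1, 1.44), and none with CCl4, where Tlr5 lay at -0.99.

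The interaction tests whether the log2 fold change with CCl4 differed between the guides, as sgBap1 minus NTC. No receptor passed, and neither did any of the 17015 genes (0%). At an unadjusted p under 0.05 stood 6 members, all negative, against 10.4% of all genes (6.78% negative). DESeq2's Wald test called 3 members, Tlr1, Tlr2 and Tlr9, all negative, against 2.7% of its 15058 genes (2% negative). All 10 estimates were negative, with a median of -0.75 against -0.02 for all genes. The 4 vehicle livers enter this contrast and the vehicle comparison alike, so the signs of the 2 are not independent.

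The interaction was largest for Tlr9, at -2.11 ± 0.47 (adjusted p = 0.129), whose rise with CCl4 was 13.8-fold with the NTC guide and 3.21-fold with sgBap1. For Tlr1 it was -1.42 ± 0.22 (adjusted p = 0.0694), with rises of 11.2-fold and 4.18-fold, and with Tlr1 and Tlr6 counts summed it was -1.05 ± 0.17 (adjusted p = 0.0696). Tlr2 stood at -0.97 ± 0.25 (adjusted p = 0.177). The smallest estimate was that of Tlr3, -0.16 ± 0.27 (adjusted p = 0.894), and Tlr13 stood at -0.41 ± 0.22 (adjusted p = 0.575). For Tlr5 the estimate of -0.71 ± 0.28 (adjusted p = 0.41) meant a larger fall with sgBap1, since it was lower after CCl4 with both guides. Without the second sgBap1-CCl4 liver the estimates of Tlr1 and Tlr9 were -1.44 and -2.26, and no member was called.

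Markers of monocytes, macrophages and neutrophils were higher after CCl4 under both guides, like most receptors, whereas those of Kupffer cells, B cells and T and NK cells were not higher as lists with sgBap1. The 6 Kupffer cell markers (Clec4f, Vsig4, Cd5l, Timd4, Marco and Adgre1) summed to 161 and 268 CPM in NTC-Veh and 340 and 515 CPM in sgBap1-Veh. After CCl4 they were at 455 to 885 CPM with the NTC guide and 437 to 638 CPM with sgBap1. In sgBap1-Veh all 6 were higher than in NTC-Veh, with a median log2 fold change of 0.94. None passed edgeR's test, where 0.276% of all genes were called higher. DESeq2's Wald test called 4 of them higher, against 2.6% of its genes. With CCl4, 3 of 6 rose with the NTC guide (Cd5l, Marco and Adgre1), and with sgBap1 1 rose (Marco) and 2 fell (Clec4f and Timd4, the latter not called without the second sgBap1-CCl4 liver, adjusted p = 0.0546). These are 50% of the list under each guide, against 53.9% and 57% of all genes (27.4% and 29% higher, 26.6% and 28% lower). The 6 markers of monocytes and macrophages (Ly6c2, Ccr2, Itgam, Lyz2, Cx3cr1 and Trem2) summed to 52.3 and 67.3, 101 and 122, 472 to 563 and 448 to 632 CPM in the same order of groups. All 6 rose with CCl4 under both guides, with median log2 fold changes of 3.86 and 3.20. Of all genes 27.4% and 29% were called higher. Between the vehicle groups none of them passed edgeR's test. Without the second sgBap1-CCl4 liver 1 passed, higher in sgBap1-Veh (16.7%, against 0.892% of all genes). DESeq2's Wald test called 3 higher in sgBap1-Veh, against 2.6% of its genes.

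Other leucocyte markers were less abundant. The 6 neutrophil markers summed to 3.46 to 6.73 CPM with vehicle and to 17.7 to 27.3 CPM with CCl4. The 5 that were tested rose under both guides, where 27.4% and 29% of all genes were called higher. Ly6g, a defining neutrophil marker, was at 0 counts in both sgBap1-Veh livers and at most 0.154 CPM in any liver. The 6 dendritic cell markers summed to 5.79 to 9.33 CPM, the 4 B cell markers to 3.46 to 11.5 CPM and the 6 T and NK cell markers to 1.69 to 8.07 CPM over all livers. The T and NK cell markers were at 1.69 and 3.95 CPM in NTC-Veh and at 5.91 and 6.19 CPM in sgBap1-Veh, and all 6 were higher in the latter without passing the test. All 5 hepatocyte markers had lower estimates after CCl4 under both guides. By edgeR's test 4 passed with the NTC guide and 1 with sgBap1, where 26.6% and 28% of all genes were called lower. DESeq2's Wald test called 4 lower under each guide. Cyp2e1 went from 9289 and 10200 CPM in NTC-Veh to 133 to 222 CPM in NTC-CCl4. The part of cell numbers in the receptor results was not tested.

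**Figure D4:**
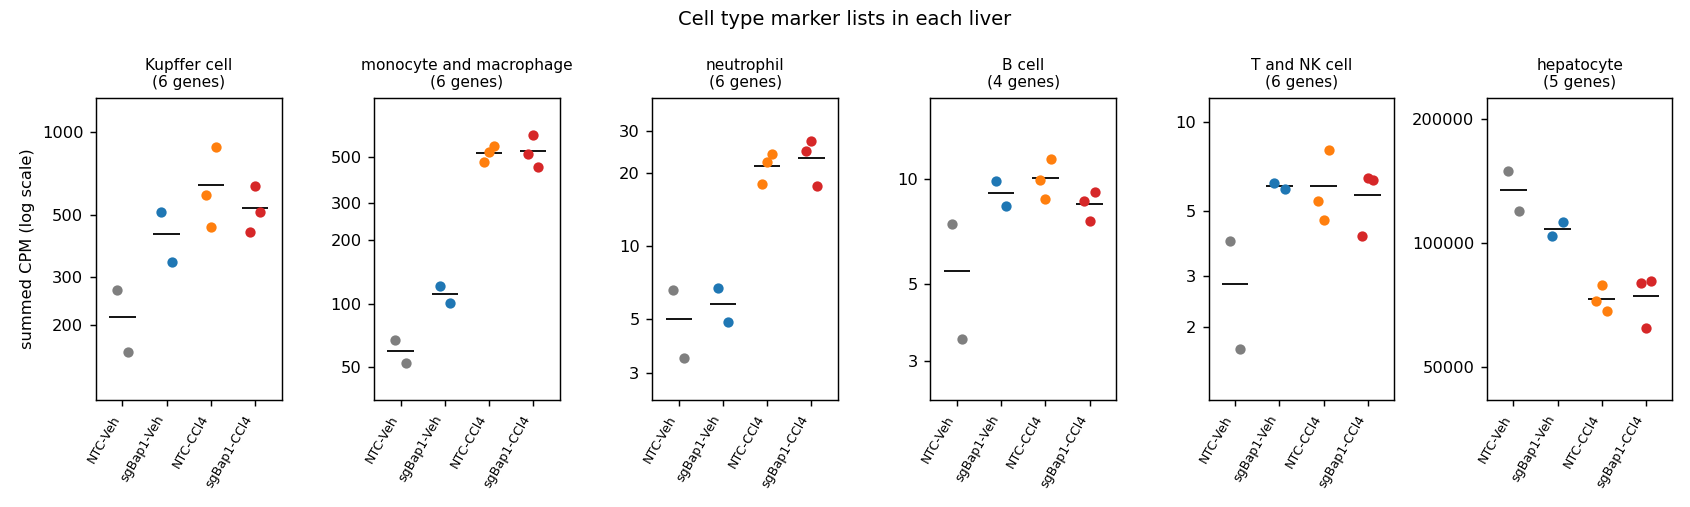
Summed CPM of 6 cell type marker lists in each liver, on log axes whose range differs between panels, with points as livers and bars as group means. The monocyte and macrophage list rises from 52.3 to 122 CPM in vehicle livers to 448 to 632 CPM in CCl4 livers, and the Kupffer cell list is lowest in NTC-Veh at 161 and 268 CPM.

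Genes that work with the receptors were examined in 8 lists of 74 genes, of which 72 were tested. After CCl4, 38 were higher and 10 lower with the NTC guide, and 36 were higher and 8 lower with sgBap1. These are 66.7% and 61.1% of the tested genes, against 53.9% and 57% of all genes, so in either direction the share with sgBap1 lies near that of all genes. By direction, 27.4% and 29% of all genes were called higher and 26.6% and 28% lower, while most called genes of the lists were higher. Without the second sgBap1-CCl4 liver the share of the lists with sgBap1 was 59.2%, against 52.6% of all genes. Among the genes for ligand transfer and co-receptors, 3 of 7 rose with the NTC guide (42.9%) and 4 of 7 with sgBap1 (57.1%). Cd14, which hands lipopolysaccharide to TLR4, was at 1.88 and 2.70 CPM in NTC-Veh and at 22.5 to 38.3 CPM in NTC-CCl4, a log2 fold change of 3.81 ± 0.27 (adjusted p = 4.71e-06). With sgBap1 it rose by 3.94 ± 0.27 (adjusted p = 3.51e-06). Cd180 (3.04 and 1.94) and Ly86 (1.68 and 0.74), which form a TLR4-like receptor of B cells and macrophages, rose under both guides. Ly96, the MD-2 subunit bound to TLR4, rose with sgBap1 (0.70 ± 0.21, adjusted p = 0.0168) and stood at 0.51 ± 0.21 with the NTC guide (adjusted p = 0.0681). Lbp, the carrier of lipopolysaccharide in serum, was at -0.36 ± 0.24 (adjusted p = 0.239) and 0.03 ± 0.24 (adjusted p = 0.915).

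Of 7 genes for the folding and endosomal handling of receptors, 5 rose and 1 fell with CCl4 under the NTC guide, and 4 rose and 1 fell under sgBap1. These are 85.7% and 71.4% of the list, against 53.9% and 57% of all genes. Ctss and Lgmn, proteases that cleave endosomal receptors, rose by 2.42 and 2.19 with the NTC guide and by 1.40 and 1.63 with sgBap1 on the log2 scale. Cnpy4, a chaperone relative, rose by 1.00 and 1.11, and Slc15a4, an endolysosomal transporter needed for Tlr7 and Tlr9 signalling, fell by 0.83 and 1.01. Unc93b1, the carrier of endosomal receptors, rose with the NTC guide (0.56 ± 0.10, adjusted p = 0.00125) and stood at -0.01 ± 0.10 with sgBap1 (adjusted p = 0.97). Its interaction was -0.56 ± 0.15 (adjusted p = 0.177).

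The adaptors link the receptors to the kinases. Of 6 adaptors 3 rose under each guide: Ticam2, the bridging adaptor of TLR4 (2.19 and 1.92), Myd88 (0.69 and 0.65) and Pik3ap1 (0.46 and 0.45). That is 50% of the list under each guide, all higher, where 27.4% and 29% of all genes were called higher. Ticam1, which encodes TRIF, did not pass with CCl4 (-0.07 ± 0.09 and 0.19 ± 0.09). Between sgBap1-CCl4 and NTC-CCl4 it was the gene of the 8 lists that edgeR called (1.39% of those tested, against 0.329% of all genes). It was at 21.1 to 23.6 CPM against 14.3 to 16.3 CPM (0.56 ± 0.08, adjusted p = 0.032). The call was lost without the second sgBap1-CCl4 liver (0.59, adjusted p = 0.0531). DESeq2's Wald test also called Cd14, Nfkbia, Nfkbiz and Hspa1a higher, where it called 3.08% of its 15567 genes. Hspa1a was at 15.0 CPM in the second sgBap1-CCl4 liver and at 6.81 and 3.53 CPM in the other sgBap1-CCl4 livers. Of 14 kinases and ubiquitin ligases, 5 rose and 1 fell under each guide. These are 42.9% of the list, below the 53.9% and 57% of all genes called in either direction. Without the second sgBap1-CCl4 liver 4 rose and 1 fell under each guide (35.7%). Traf3 rose by 0.88 and 0.96, Irak4 by 0.48 and 0.38, and Chuk fell by 0.63 and 0.93, and the list's median was 0.14 and 0.21.

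Of 8 transcription factors, 6 rose and 1 fell under each guide, which is 87.5% of the list against 53.9% and 57% of all genes. Irf8 (1.68 and 0.79), Irf5 (1.19 and 0.95) and Nfkb2 (1.17 and 1.21) rose in both, as did Irf7 (1.47 and 0.66). Of 10 genes listed here as inhibitors of the pathway, not all of which only inhibit it, 4 rose under each guide. These were Irak3 (2.12 and 1.19), Socs1 (1.89 and 1.05), Tnfaip3 (1.57 and 1.34) and Nfkbiz (0.62 and 0.94). Socs1 with sgBap1 was not called without the second sgBap1-CCl4 liver (adjusted p = 0.0725). With the NTC guide 4 fell (5 without the second sgBap1-CCl4 liver), and with sgBap1 2 fell. The shares called were 80% and 60% of the list, against 53.9% and 57% of all genes. Without CCl4 edgeR called 2 genes of the 8 lists between the guides (2.78% of those tested, against 0.406% of all genes). Ctss was at 50.2 and 60.3 CPM in sgBap1-Veh against 24.7 and 29.6 CPM in NTC-Veh (1.03 ± 0.14, adjusted p = 0.0209), and Irf8 at 11.1 and 14.4 CPM against 6.46 and 6.83 CPM (0.95 ± 0.16, adjusted p = 0.0418).

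Of the 14 cytokines and enzymes induced by the receptors 12 were tested, and 9 rose with CCl4 under the NTC guide and 6 under sgBap1. These are 75% and 50% of those tested, where 27.4% and 29% of all genes were called higher. DESeq2's Wald test called 10 and 8 higher. Tnf was at 0.139 and 0.245 CPM in NTC-Veh, and 0.350 and 0.599 CPM in sgBap1-Veh. After CCl4 it was at 1.47 to 2.52 CPM with the NTC guide and 1.45 to 1.80 CPM with sgBap1. It rose by 3.42 ± 0.42 with the NTC guide (adjusted p = 7.54e-05) and by 1.78 ± 0.37 with sgBap1 (adjusted p = 0.00211). Cxcl2, a neutrophil chemokine, rose by 4.09 ± 0.75 and 3.33 ± 0.56. It had only 4 and 1 counts in NTC-Veh and 8 and 6 counts in sgBap1-Veh. Il1b rose by 1.39 ± 0.44 with the NTC guide (adjusted p = 0.0231), against 0.53 ± 0.41 with sgBap1 (adjusted p = 0.297). The edgeR interaction did not pass for Tnf (-1.64 ± 0.63, adjusted p = 0.392) or Il1b (-0.86 ± 0.60, adjusted p = 0.69). Ptgs2 was at 0 counts in both NTC-Veh livers and at 0.171 to 0.442 CPM in NTC-CCl4. Il6 was at or below 16 counts in every liver and did not pass in any comparison, and Ifnb1 had at most 2 counts and was not tested.

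Host molecules described as ligands of the receptors were divided. Of 8 genes, 3 rose and 3 fell with CCl4 under the NTC guide, and 4 rose and 3 fell under sgBap1. These are 75% and 87.5%, against 53.9% and 57% of all genes. S100a8 (2.04 and 1.69) and S100a9 (1.84 and 1.85), which are also in the neutrophil list, rose, and Sftpa1 fell by 2.61 and 2.55. Tlr11 and Tlr12, mouse receptors for profilin outside the 10 members, fell with CCl4 under both guides. Tlr11 fell by 1.10 ± 0.38 (adjusted p = 0.0309) and 1.77 ± 0.36 (adjusted p = 0.00195) on the log2 scale, and Tlr12 by 0.98 ± 0.28 (adjusted p = 0.0132) and 1.26 ± 0.29 (adjusted p = 0.00444).

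**Figure D5:**
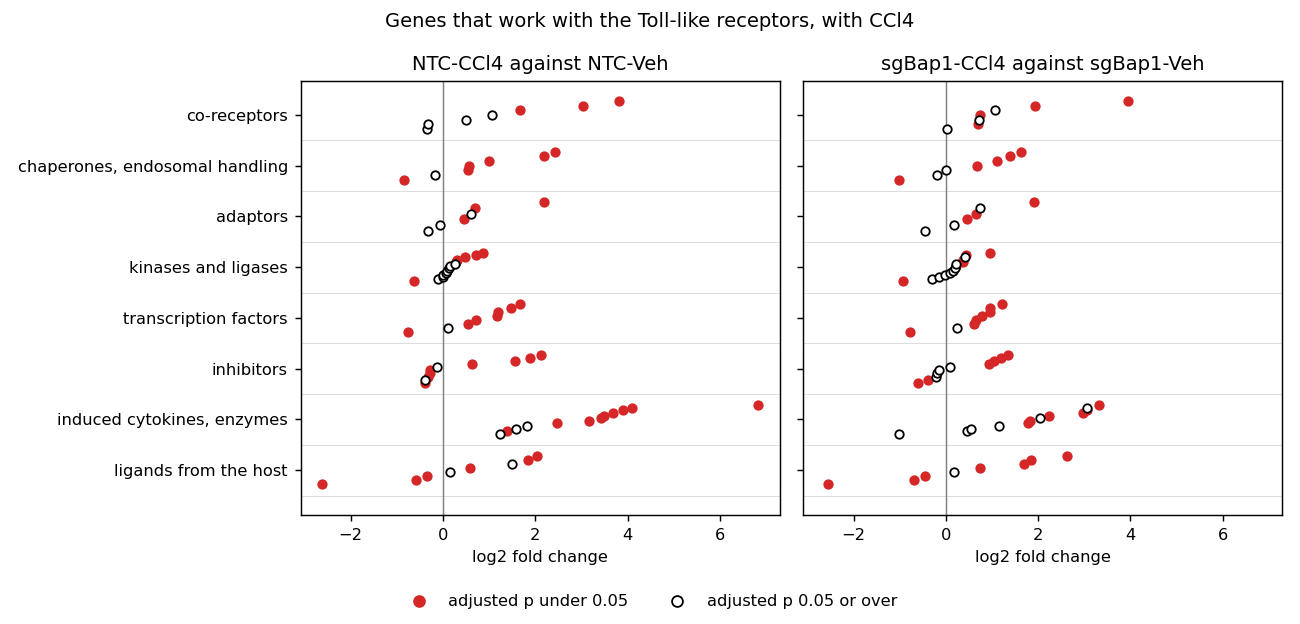
Log2 fold change with CCl4 under each guide for the 72 tested genes that work with the Toll-like receptors, in 8 lists, filled where the adjusted p was under 0.05. Co-receptors reach 3.81 and 3.94 (Cd14), kinases and ligases stay between -0.93 and 0.96, and the rightmost point with the NTC guide, Ptgs2, has 0 counts in NTC-Veh.

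The genes whose log2 CPM followed each receptor most closely over the 10 livers are given as a description, since the livers fall into 4 groups and share treatment. High values were common: of all 17015 genes, 8.92% (Tlr9) to 17.7% (Tlr13) had an r over 0.9 with a receptor other than Tlr3 and Tlr5, against 0.341% for Tlr3 and 1.36% for Tlr5. Tlr1 was closest to Ctss, Fcer1g and Ly9 (Pearson's r at most 0.997), and Tlr2 to the blood cell genes Fyb, Vav1 and Arhgap30 (at most 0.994). Tlr4 was closest to Tlr7 (0.992), followed by Clec4n and Apbb1ip, and Tlr7 to Tfrc, Nckap1l and Elf4 (at most 0.996). Tlr6 was closest to the monocyte gene Ccr2 (0.998), then Sema4d and Apobr. Tlr8 followed Nfatc2, Plcg2 and Kcnab2 (at most 0.993), and Tlr9 followed Ms4a6c, Morrbid and A530064D06Rik (at most 0.987). Tlr13 was closest to the cytoskeletal genes Diaph3, Mapre1 and Wdr1 (at most 0.999). Tlr3 was closest to Ddx58, which encodes the cytosolic RNA sensor RIG-I (0.970), then Antxr2 and Ephb6, and Tlr5 to Def8 (0.984), Ces2g, a liver carboxylesterase, and Zfp667.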

How the data were processed

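The authors aligned stranded poly(A) libraries to GRCm38 with STAR 2.7.6a and quantified genes with Salmon 1.4.0. The deposited table holds expected counts (Salmon's estimated counts) for 55291 gene symbols in 10 livers without normalization, and 6.55% of its values were not whole. Counts were rounded, and edgeR 4.0.16 (R 4.3.3) served for the tests: filterByExpr left 17015 genes, libraries were scaled by TMM, and 1 model of the 4 groups was fitted with glmQLFit (robust). Tests were two-sided, with Benjamini-Hochberg adjustment over all tested genes and a threshold of 0.05. Each SE was worked back from the test, as the absolute log2 fold change divided by the square root of its F statistic. It is therefore approximate, as are the ranges built on it. DESeq2, the tool of the study, was an alternative, run here in version 1.42.0. Others were DESeq2 size factors, library size alone, other count filters, the edgeR 3 method, the replicate number as a block, only the groups compared, and each liver left out. Summing Tlr1 and Tlr6, and the lists without sgBap1-CCl4 replicate 2, were added after the data were seen. The test was checked on simulated data. The members, lists and markers were chosen with earlier results of these data known. Named genes are the 10 members, Bap1, up to 4 called genes per list and comparison by absolute log2 fold change, 11 fixed genes, and the 3 genes most correlated with each member. Some of these are left out of the text. Levels per kb use the longest coding transcript of GENCODE vM21; the authors quantified on vM25.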

Additional observations from a re-analysis of the deposited data

How the results depend on the processing

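The number of receptors called with CCl4 was 9 to 10 with either guide under the alternatives that keep every liver, and 8 to 10 (NTC) and 9 to 10 (sgBap1) when livers were left out in turn. For sgBap1-Veh against NTC-Veh 1 receptor was called, with 5 under DESeq2's Wald test, 0 with only the 2 groups compared, and 0 to 1 when livers were left out. No pairing of livers by replicate number was seen. Over 13 same-numbered pairs the correlation of deviations from the group means was -0.149 to 0.102, and 3 of 10 livers correlated best with their own number. In groups of 2 livers the deviations mirror each other, so this check cannot exclude a pairing. With the replicate number as a block the count was 0, with Tlr1 at 1.44 (adjusted p = 0.0744), and Tlr5 after CCl4 with the NTC guide was at -0.53 (adjusted p = 0.0781). For sgBap1-CCl4 against NTC-CCl4 the count of 0 became 1 (Tlr5) with library size alone, with no filter on low counts and with DESeq2's Wald test, and was 0 with each liver left out in turn. For the interaction the count of 0 became 1 (Tlr1) with no filter on low counts and 3 with DESeq2's Wald test, and was 0 with each liver left out in turn. The cause of these differences was not tested. Estimates near 0 changed sign when livers were left out. Between the CCl4 groups Tlr1 ran from -0.04 (without NTC-CCl4 replicate 1) to 0.08, and was 0.00 without sgBap1-CCl4 replicate 2. Tlr2 ran from -0.17 to 0.12, being positive without NTC-CCl4 replicate 3 (0.12) or sgBap1-CCl4 replicate 3 (0.03). Without NTC-CCl4 replicate 2 Tlr4 was at -0.02 (highest 0.27) and Tlr6 at 0.04 (lowest -0.07). Without sgBap1-CCl4 replicate 2 Tlr8 was at -0.07 (highest 0.40) and Tlr13 at -0.04 (highest 0.16). The interaction of Tlr3 ran from -0.33 to 0.04, with 0.01 without NTC-CCl4 replicate 1. A vehicle group left with 1 liver was assumed to vary like the others. Vehicle groups of 2 livers limit what those comparisons can show, and Tlr9 rests on 6 and 9 counts in NTC-Veh.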
